A study of Mus musculus with 12 samples.

Results

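Small leucine-rich proteoglycans are secreted proteins of the extracellular matrix whose core is built from leucine-rich repeats. They bind collagen fibrils and set their diameter and spacing, many carry chondroitin, dermatan or keratan sulfate chains, and several bind growth factors of the Tgf-beta family. In the lung they are made mainly by fibroblasts and other mesenchymal cells, so their transcripts are a readout of the tissue around the airways. The 10 genes described here are Dcn, Bgn and Aspn (class I), Lum, Fmod, Prelp, Kera and Omd (class II) and Ogn and Epyc (class III). They were chosen by gene family from a table of 22180 measured genes, and all 10 were measured. For each gene the probe set was selected on its mean level over all 12 arrays, which is a choice that did not use the genotypes, but the family was taken up with earlier results of these data known, among them those of Lum and Dcn in Yy1 mutants, which are therefore no independent support.

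RNA came from whole mouse lungs at stage E14.5, when the airways branch, and was measured on single-channel Affymetrix arrays. All 12 specimens, controls included, carried a Cre allele on 1 copy of the Shh locus, a driver that acts in the airway epithelium. The 4 controls were Shh+/Cre, the 4 Yy1 mutants Yy1flox/flox;Shh+/Cre, and the 4 Dicer mutants Dicerflox/flox;Shh+/Cre. Yy1 is a zinc finger transcription factor and Dicer an enzyme that cuts microRNA precursors, so in both mutants the allele is designed to be lost in epithelium, while the proteoglycans are expressed chiefly outside it. The labels give neither litter nor sex and do not say whether a specimen was 1 embryo, so the p-values measure only the spread between these specimens. Levels are the deposited log2 values. They are compared between genotypes for a given gene, not between genes. Because the specimens were bulk tissue, fewer cells of a type and less RNA per cell cannot be told apart.

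The arrays were alike in median (5.99 to 6.08) and correlated at 0.978 to 0.991 over all probe sets. On 3 of them, Yy1 mutants 2 and 3 and Dicer mutant 4, the Y-linked genes stood apart. Eif2s3y read 7.99, 5.92 and 7.84 on these and 3.73 to 4.48 on the other 9, all controls included. These 3 are named the Y-high arrays here. Counts of called members are also given without them, which leaves 2 Yy1 mutants and 3 Dicer mutants. The list of 10 lung epithelial markers, with Nkx2-1 and Sftpc among them, averaged 9.07 to 9.29 in controls, 8.19 to 8.53 in Yy1 mutants and 8.67 to 8.84 in Dicer mutants. Not every entry followed the average. In Dicer mutants Sox9 differed from controls by 0.22 and Epcam by 0.11, neither called. There 7 of the 10 were called lower, beside 3.97% of all genes.

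The upstream sequences of 4 called members, from the RefSeq promoter table (GRCm38.p6), are shown first. Ogn rose and Fmod fell in both mutants, and Aspn rose and Prelp fell in Dicer mutants, while neither passed the test in Yy1 mutants. Epyc, called in Dicer mutants, is in the table with a pair of starts and is not shown. Each covers the 250 bases before the annotated start, 5′ to 3′ on the gene's own strand. Capitals mark CAGAC, the core that Smad proteins of the Tgf-beta pathway recognise, and CANNTG, the E-box, on either strand. Ogn lies at chr13:49607765-49608014 (plus strand), Aspn at chr13:49544193-49544442 (plus strand), Fmod at chr1:134037004-134037253 (plus strand) and Prelp at chr1:133921402-133921651 (minus strand).
Ogn: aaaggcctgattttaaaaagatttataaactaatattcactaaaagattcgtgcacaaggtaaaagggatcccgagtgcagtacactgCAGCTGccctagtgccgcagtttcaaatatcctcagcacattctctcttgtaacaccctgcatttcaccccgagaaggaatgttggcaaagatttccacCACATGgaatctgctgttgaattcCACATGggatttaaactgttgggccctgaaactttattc
Aspn: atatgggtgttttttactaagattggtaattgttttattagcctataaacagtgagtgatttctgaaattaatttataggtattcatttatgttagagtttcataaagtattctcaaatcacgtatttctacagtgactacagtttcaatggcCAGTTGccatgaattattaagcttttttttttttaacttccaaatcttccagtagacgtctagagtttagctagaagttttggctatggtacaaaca
Fmod: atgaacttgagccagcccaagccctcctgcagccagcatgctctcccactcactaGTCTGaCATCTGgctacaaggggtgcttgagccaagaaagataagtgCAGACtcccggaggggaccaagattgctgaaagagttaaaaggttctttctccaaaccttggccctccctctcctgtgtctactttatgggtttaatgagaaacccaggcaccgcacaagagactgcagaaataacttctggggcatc
Prelp: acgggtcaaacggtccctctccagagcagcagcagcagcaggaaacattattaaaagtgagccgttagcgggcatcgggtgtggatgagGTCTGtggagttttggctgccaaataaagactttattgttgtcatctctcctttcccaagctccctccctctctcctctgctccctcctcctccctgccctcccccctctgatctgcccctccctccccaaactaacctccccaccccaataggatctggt

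The promoter table held 8 of the 10 members in 9 entries, with a pair of starts for Epyc. CAGAC was found in 2 of the 8, Fmod with 2 matches and Prelp with 1, against 42.2% of all 32851 promoters of the same length. The E-box was found in 5 of the 8 (Fmod, Epyc, Aspn, Ogn and Bgn), against 66.2% of all promoters. Ogn held 3 E-boxes, beginning 162, 63 and 39 bases before the start. The Yy1 motifs AANATGGC and CCATNTT, held by 3.91% and 12.4% of promoters, had no match in the 8, which says only that these letters are not in this window. In Fmod the CAGAC match that begins at 195 bases and the E-box at 189 bases before the start lie 1 base apart and do not overlap. No binding was measured in these samples.

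Of the 10 members, 3 rose and 1 fell in Yy1 mutants, and 4 rose and 3 fell in Dicer mutants, at a Benjamini-Hochberg adjusted p under 0.05 in the limma fit over all genes. Dcn, Lum and Ogn rose and Fmod fell in both. Aspn rose, and Prelp and Epyc fell, in Dicer mutants. Over all genes, 6.61% were called in Yy1 mutants (2.77% higher, 3.84% lower) and 8.75% in Dicer mutants (4.78% higher, 3.97% lower). The medians over the 10 members were -0.04 and -0.01 on the log2 scale, beside 0.002 and -0.028 over all genes. In 4 members all Yy1 mutants lay on one side of all controls, and in 6 all Dicer mutants did, where 12.6% and 16.0% of all genes did so. When the Y-high arrays were removed, 3 members were called in Yy1 mutants and 5 in Dicer mutants, beside 2.73% and 4.40% of all genes. Both comparisons use the same 4 controls.

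**Figure D1:**
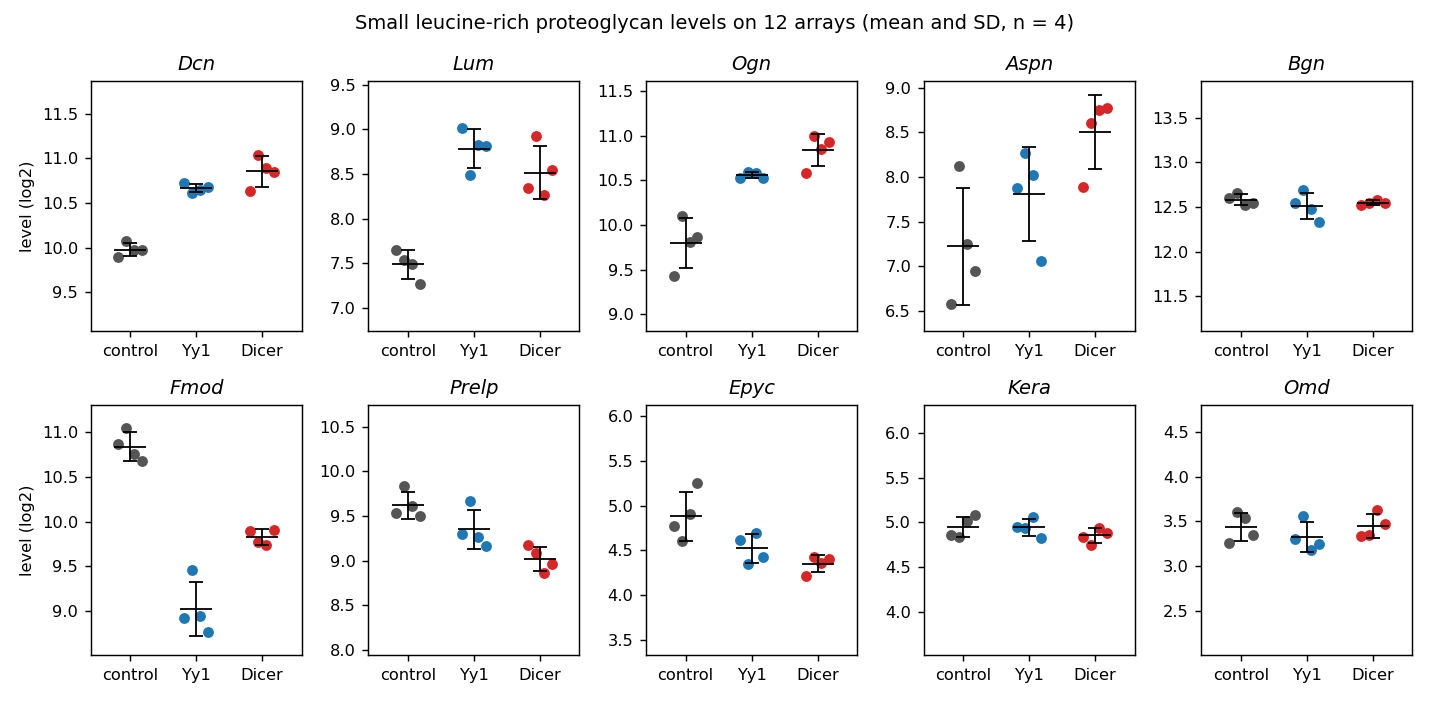
Level of each of the 10 proteoglycan genes (vertical axis, log2) on the 4 control, 4 Yy1 mutant and 4 Dicer mutant arrays, with the group mean and SD (bars); every panel spans the same log2 range around its own centre. Dcn, Lum and Ogn are higher and Fmod lower on all mutant arrays, while the groups overlap in Bgn, Kera and Omd.

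Class I comprises decorin, biglycan and asporin. Dcn encodes decorin, which coats collagen fibrils and binds Tgf-beta. It read 9.89, 10.07, 9.97 and 9.97 in controls 1 to 4, 10.72, 10.61, 10.65 and 10.68 in the Yy1 mutants, and 10.63, 11.04, 10.89 and 10.85 in the Dicer mutants. All 8 mutant arrays lay above all 4 controls, and the Yy1 mutants differed among themselves by little. Dcn rose from 9.98 ± 0.0761 to 10.66 ± 0.0501 (SD, n = 4) in Yy1 mutants, a difference of 0.69 (SE 0.0821, adjusted p = 0.000191), and to 10.85 ± 0.171 in Dicer mutants, a difference of 0.88 (adjusted p = 2.33e-05).

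Bgn encodes biglycan, the closest relative of decorin, and lies on the X chromosome. It read 12.60, 12.66, 12.52 and 12.55 in controls, 12.55, 12.69, 12.48 and 12.33 in Yy1 mutants, and 12.52, 12.55, 12.58 and 12.55 in Dicer mutants. The 3 groups overlapped, and the 12 arrays spanned 0.36 in all. The difference was -0.07 in Yy1 mutants (95% interval -0.23 to 0.09, adjusted p = 0.681) and -0.03 in Dicer mutants (-0.19 to 0.13, adjusted p = 0.849). Changes of the size seen in Dcn lie outside both intervals. The second Bgn probe set differed by -0.03 and -0.08.

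Aspn encodes asporin, which lacks the usual glycosaminoglycan chain and inhibits Tgf-beta signalling. It was the least uniform member within a genotype. The controls read 6.58, 8.12, 7.25 and 6.95, the Yy1 mutants 7.88, 8.27, 8.02 and 7.06, and the Dicer mutants 7.89, 8.61, 8.75 and 8.77. Control 2 lay above Dicer mutant 1 and 3 of the Yy1 mutants, so the groups overlapped in both comparisons. Aspn rose by 1.28 (SE 0.318, adjusted p = 0.0223) in Dicer mutants, and its difference in Yy1 mutants was 0.58 (95% interval -0.10 to 1.27, adjusted p = 0.355). The call in Dicer mutants was lost in 8 of 21 alternatives. It gave adjusted p = 0.0886 without the Y-high arrays and 0.0572 with an intensity trend and robust prior. With a single array left out it was lost without control 1 (0.0726), control 3 (0.0506), control 4 (0.0613) or Dicer mutants 2 (0.0591), 3 (0.0636) or 4 (0.0686).

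Class II comprises lumican, fibromodulin, prolargin, keratocan and osteomodulin, several of which can carry keratan sulfate. Lum encodes lumican, which competes with fibromodulin for a site on collagen. It read 7.65, 7.54, 7.49 and 7.27 in controls, 9.01, 8.49, 8.82 and 8.81 in Yy1 mutants, and 8.34, 8.92, 8.26 and 8.54 in Dicer mutants. The lowest mutant array stood well above the highest control. Lum rose 2.45-fold in Yy1 mutants, from 7.49 ± 0.161 to 8.78 ± 0.213 (SD, n = 4; difference 1.29, SE 0.142, adjusted p = 0.000105), and 2.04-fold in Dicer mutants, to 8.52 ± 0.295 (difference 1.03, adjusted p = 0.000529).

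Fmod encodes fibromodulin, abundant in tendon and other fibrous tissue, where it steers the early growth of collagen fibrils. It moved opposite to lumican. The controls read 10.87, 11.05, 10.76 and 10.68, the Yy1 mutants 8.92, 9.46, 8.94 and 8.77, and the Dicer mutants 9.90, 9.77, 9.74 and 9.91. The 3 genotypes did not overlap: every Yy1 mutant lay below every Dicer mutant, and every Dicer mutant below every control. Fmod fell 3.53-fold in Yy1 mutants (difference -1.82, SE 0.129, adjusted p = 2.17e-06) and 2.01-fold in Dicer mutants (difference -1.01, adjusted p = 0.000279). Its second probe set was lower too, going from 7.94 ± 0.238 in controls to 6.62 ± 0.286 in Yy1 mutants and 7.13 ± 0.154 in Dicer mutants, differences of -1.32 and -0.80 that were not tested on their own. With both probe sets averaged the adjusted p was 8.03e-06 and 0.000619.

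Prelp encodes prolargin, which binds both collagen and the heparan sulfate of basement membranes. It read 9.53, 9.83, 9.61 and 9.50 in controls, 9.30, 9.67, 9.27 and 9.16 in Yy1 mutants, and 9.17, 9.08, 8.86 and 8.96 in Dicer mutants. All Dicer mutants lay below all controls, while Yy1 mutant 2 lay among the controls. Prelp fell by 0.60 (SE 0.112, adjusted p = 0.00434) in Dicer mutants. Its difference in Yy1 mutants was -0.27 (95% interval -0.51 to -0.03, adjusted p = 0.20), and it was called there only without Yy1 mutant 2 (-0.38, adjusted p = 0.0394), alone among the 21 alternatives. Its second probe set differed by less, -0.16 in Dicer mutants and -0.06 in Yy1 mutants, and with both averaged the difference in Dicer mutants was -0.38 (adjusted p = 0.0214).

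**Figure D2:**
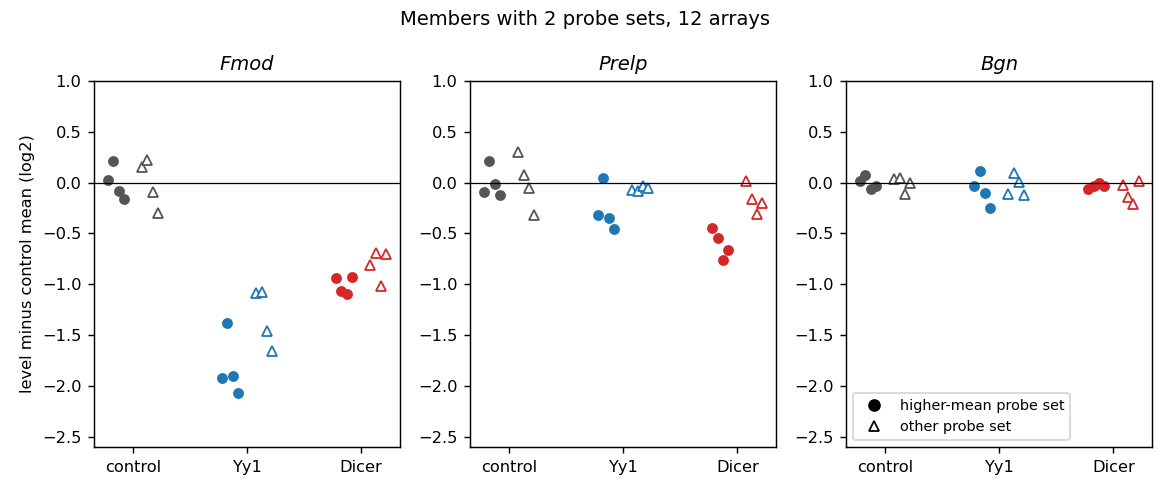
Level minus the control mean (vertical axis, log2) for the 3 members with 2 probe sets, with the probe set of higher mean as filled circles and the other as open triangles, 4 arrays per genotype. Both Fmod probe sets lie below 0 on all 8 mutant arrays, the second Prelp probe set differs less than the first, and both Bgn probe sets stay near 0.

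Kera and Omd encode keratocan and osteomodulin, known from cornea and bone. Both are among the dimmest 30% of genes in this table, as is Epyc, and since the table has no detection calls, whether they were above background is not known. Kera read 4.84 to 5.08 in controls, 4.82 to 5.06 in Yy1 mutants and 4.75 to 4.94 in Dicer mutants. Omd read 3.26 to 3.60, 3.18 to 3.56 and 3.34 to 3.63. Neither was called, with 95% intervals of -0.17 to 0.16 and -0.26 to 0.07 for Kera and -0.34 to 0.11 and -0.21 to 0.23 for Omd in Yy1 and Dicer mutants.

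Class III comprises osteoglycin and epiphycan. Ogn encodes osteoglycin, also called mimecan, a collagen fibril regulator of connective tissue. It read 9.43, 10.10, 9.81 and 9.86 in controls, 10.52, 10.59, 10.58 and 10.53 in Yy1 mutants, and 10.58, 10.99, 10.85 and 10.93 in Dicer mutants. Every mutant array exceeded every control, and the SD of the Yy1 mutants was 0.0371 (n = 4). Ogn rose 1.68-fold in Yy1 mutants (difference 0.75, SE 0.122, adjusted p = 0.00196) and 2.05-fold in Dicer mutants (1.04, adjusted p = 0.000153). With the Y-high arrays removed the difference in Yy1 mutants was 0.72 with adjusted p = 0.0525.

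Epyc encodes epiphycan, best known from growth cartilage. It read 4.77, 4.60, 4.91 and 5.25 in controls, 4.62, 4.35, 4.70 and 4.43 in Yy1 mutants, and 4.21, 4.43, 4.36 and 4.40 in Dicer mutants. The Dicer mutants lay below the controls, of which control 4 was the highest. Epyc fell by 0.53 (SE 0.124, adjusted p = 0.0161) in Dicer mutants, with adjusted p = 0.0557 without the Y-high arrays. In Yy1 mutants it differed by -0.36 (95% interval -0.62 to -0.09, adjusted p = 0.116), and was called only without control 2 (-0.45, adjusted p = 0.0429). The 10 cartilage markers averaged 6.38 to 6.55 in controls, 6.17 to 6.21 in Yy1 mutants and 6.04 to 6.37 in Dicer mutants, with 2 lower in Yy1 and 1 lower in Dicer mutants (1 and 1 without the Y-high arrays). Of all genes, 3.84% and 3.97% were lower. The part of the cartilage markers in the Epyc result was not tested.

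Set directly against each other, the mutants differed in 1 of the 10 members, beside 4.96% of all genes (1.57% higher and 3.39% lower in Yy1 mutants). Fmod was lower in Yy1 than in Dicer mutants by 0.81 (SE 0.129, 95% interval -1.09 to -0.53, adjusted p = 0.00204). It was also the member whose mutant groups did not overlap, as in 13.8% of all genes, and the call held without the Y-high arrays, where 1.96% of genes were called. The members called in Dicer mutants alone were not shown to differ between the mutants. The difference Yy1 minus Dicer was -0.70 for Aspn (95% interval -1.38 to -0.02, adjusted p = 0.266), 0.33 for Prelp (0.09 to 0.57, adjusted p = 0.125) and 0.17 for Epyc (-0.09 to 0.44, adjusted p = 0.51). Prelp was called in this comparison with array weights (adjusted p = 0.047) and in no other alternative. For those that rose in both, it was -0.19 for Dcn (-0.37 to -0.01), 0.26 for Lum (-0.04 to 0.57) and -0.29 for Ogn (-0.55 to -0.02), with adjusted p of 0.242, 0.366 and 0.237.

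**Figure D3:**
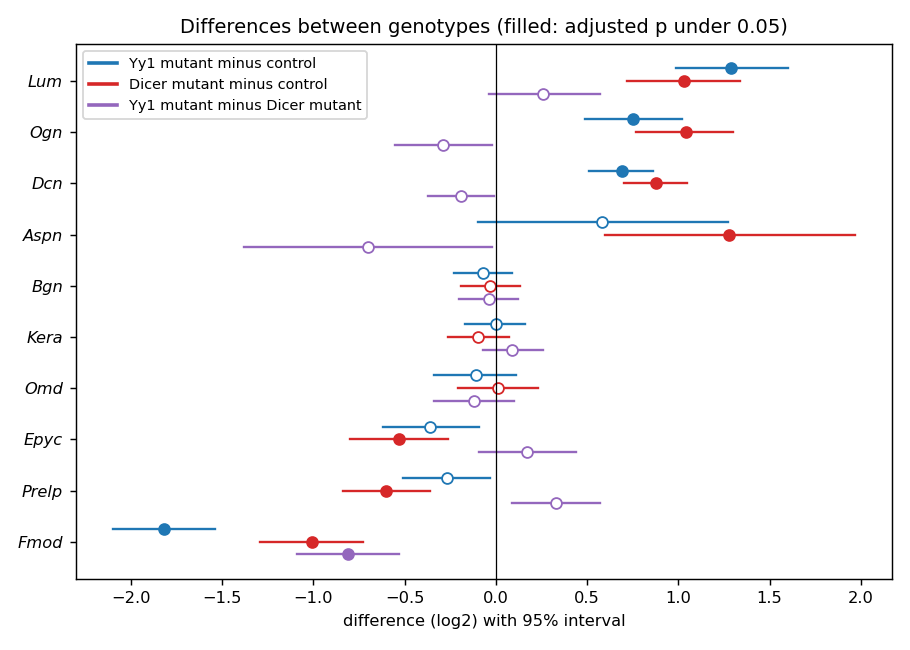
Difference between genotypes (horizontal axis, log2) with its 95% interval for each member in the Yy1 mutant minus control, Dicer mutant minus control and Yy1 minus Dicer comparisons; filled points have an adjusted p under 0.05. Only Fmod is filled in the comparison of the mutants, at -0.81.

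The order of the levels over genotypes, from the lowest mean, was control, Yy1, Dicer for Dcn (9.98, 10.66, 10.85), Ogn (9.80, 10.55, 10.84) and Aspn (7.22, 7.81, 8.51). It was control, Dicer, Yy1 for Lum (7.49, 8.52, 8.78). For Fmod it ran Yy1, Dicer, control (9.02, 9.83, 10.84), and for Prelp Dicer, Yy1, control (9.02, 9.35, 9.62). The neighbours Yy1 and Dicer did not pass the test in Dcn, Ogn, Aspn, Lum or Prelp, and neither did control and Yy1 in Aspn and Prelp. In Fmod each step of the order passed it.

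Most members lie in 3 groups of neighbouring genes (order from GRCm38.p6). On chromosome 10 the order is Dcn, Lum, Kera, Epyc. Dcn and Lum rose, Kera did not pass the test, and Epyc fell in Dicer mutants. The flanking genes Btg1 (0.00 and -0.06), Ccer1 (-0.02 and 0.03) and Atp2b1 (0.07 and -0.08, Yy1 and Dicer mutants) were not called. On chromosome 13 the order is Ecm2, Aspn, Omd, Ogn. Ogn rose in both mutants, and Ecm2, a related matrix protein gene, rose in Dicer mutants by 0.73 (adjusted p = 0.0204, and 0.111 without the Y-high arrays) while its 0.58 in Yy1 mutants was not called (adjusted p = 0.0716). Omd, between Aspn and Ogn, did not pass the test, nor did the flanking genes Cenpp, Ippk, Nol8 and Iars, whose differences lay between -0.16 and 0.09.

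On chromosome 1 the order is Optc, Prelp, Fmod. Optc, which encodes opticin of class III, fell by 0.42 in Yy1 mutants (adjusted p = 0.00977) and by 0.31 in Dicer mutants (adjusted p = 0.0421). Without the Y-high arrays these were -0.42 (adjusted p = 0.117) and -0.32 (0.143). Past Fmod, Btg2, an antiproliferative gene and p53 target, fell by 0.48 in Yy1 mutants (adjusted p = 0.00572), with -0.03 in Dicer mutants. On the other side of Optc, Atp2b4, a plasma membrane calcium pump, fell by 0.29 in Dicer mutants (adjusted p = 0.0302), with 0.03 in Yy1 mutants. Called members of the chromosome 1 group were thus all lower, those of the chromosome 13 group all higher, and those of the chromosome 10 group of both signs.

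**Figure D4:**
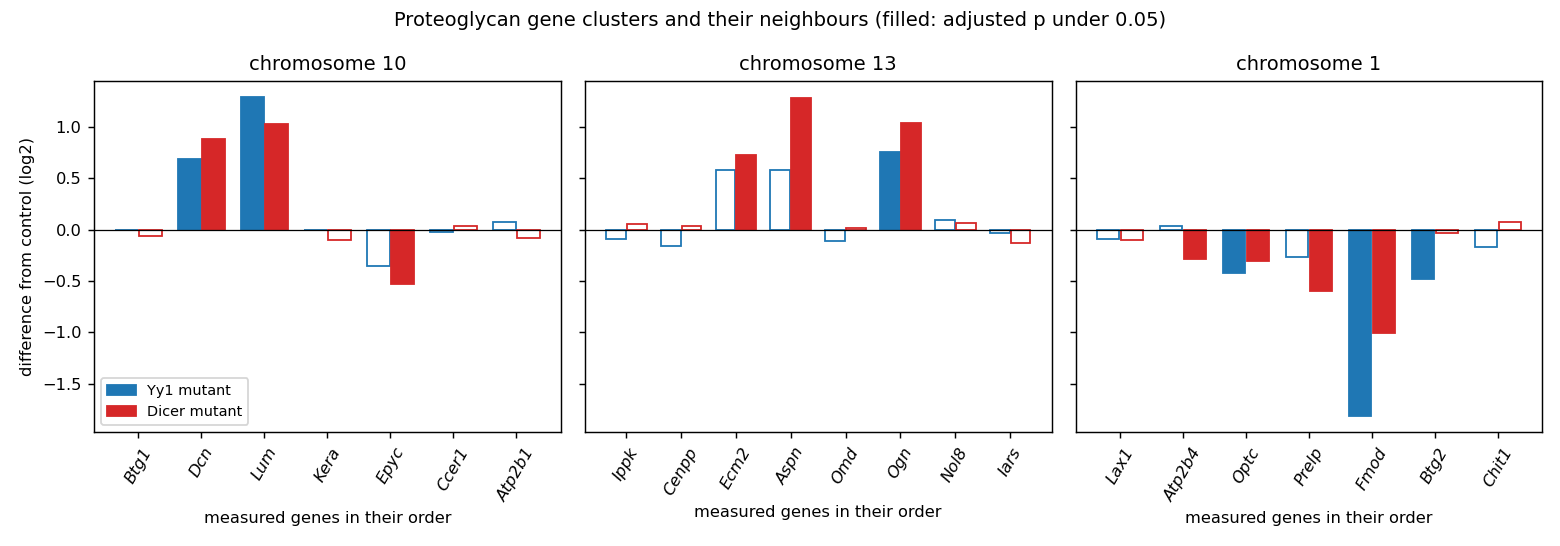
Difference from control (vertical axis, log2) in Yy1 and Dicer mutants for the measured genes of the 3 proteoglycan clusters and their flanking genes, in chromosomal order without distances; filled bars have an adjusted p under 0.05. Dcn, Lum and Ogn rise next to flanking genes with differences near 0, and Fmod falls most.

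Arrays of the same genotype also differed among themselves, and some members differed together, on the same chromosome or on different ones. Relative to its genotype's mean, Aspn was at -0.64 in control 1 and 0.89 in control 2, and Ecm2 at -0.38 and 0.46 and Ogn at -0.37 and 0.30 on the same arrays. In Dicer mutant 1, Aspn was at -0.62, Ecm2 at -0.45 and Ogn at -0.25, and in Yy1 mutant 4 they were at -0.75, -0.22 and -0.03. Lum followed another pattern, at 0.16 in control 1, 0.06 in control 2 and 0.41 in Dicer mutant 2. Fmod and Prelp were both at their highest in the Yy1 mutants on Yy1 mutant 2, at 0.44 and 0.32 above the mean, where Bgn, on another chromosome, was at 0.18. Over the 12 arrays, r of these deviations was 0.92 for Aspn with Ecm2, 0.78 for Aspn with Ogn and 0.87 for Fmod with Prelp. It was 0.82 for Ogn with Ecm2, but 0.36 for Fmod with Optc and 0.41 for Prelp with Optc. For the dim Omd it was 0.70 with Aspn, 0.77 with Ecm2 and 0.51 with Ogn. Between different chromosomes it was 0.85 for Bgn with Fmod and 0.74 for Dcn with Ogn. In the chromosome 10 group it was 0.71 for Kera with Epyc, both dim, 0.55 for Dcn with Lum and 0.20 for Dcn with Epyc. It was 0.03 for Lum with Epyc, -0.20 for Dcn with Kera and -0.52 for Lum with Kera. These values are descriptions only. Yy1 mutant 2 is also a Y-high array.

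**Figure D5:**
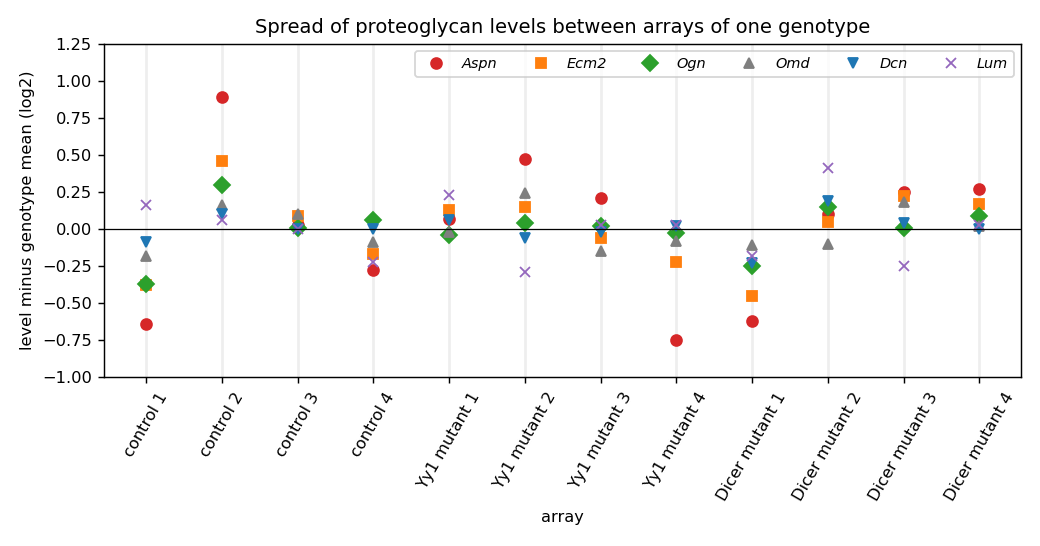
Level minus the mean of its genotype (vertical axis, log2) for Aspn, Ecm2, Ogn, Omd, Dcn and Lum on each of the 12 arrays. Aspn, Ecm2 and Ogn are low together in control 1 and Dicer mutant 1 and high together in control 2.

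Other genes of the family or close to it were also read. Of 7 measured ones (Optc, Ecm2, Chad, Chadl, Nyx, Podn and Podnl1), 1 fell in Yy1 mutants and 2 rose and 2 fell in Dicer mutants, with medians of 0.00 and -0.12. Among all genes 6.61% and 8.75% were called (2.73% and 4.40% without the Y-high arrays). Podn, which encodes podocan of vessel walls and connective tissue, rose in Dicer mutants by 0.56 (SE 0.0955, adjusted p = 0.00238, and 0.00933 without the Y-high arrays). Chadl fell by 0.29 (adjusted p = 0.0271, and 0.0778 without them). With the Y-high arrays removed none was called in Yy1 mutants and 1, Podn, in Dicer mutants.

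The proteoglycans' main binding partners are the fibrillar and fibril-associated collagens. Of 16, 3 rose and 1 fell in Yy1 mutants, and 6 rose and 1 fell in Dicer mutants, with medians of 0.12 and 0.16. Over all genes, 6.61% and 8.75% were called. Without the Y-high arrays none was called in Yy1 mutants, and 1 rose and 1 fell in Dicer mutants, beside 2.73% and 4.40% of all genes. In Yy1 mutants, Col5a2 (0.44), Col5a1 (0.26) and Col1a1 (0.26) rose and the cartilage collagen Col2a1, which is also on the cartilage marker list, fell by 0.56. In Dicer mutants, Col1a1 (0.40), Col1a2 (0.40) and Col3a1 (0.35), the chains of the main fibrils, rose, and Col11a1 fell by 0.35. Col5a2 also rose there, by 0.30. These shifts were smaller than those of Dcn, Lum and Ogn in the same mutants, a difference in size that was not tested.

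Among 17 genes of collagen processing and cross-linking, 2 rose and 1 fell in Yy1 mutants, and 1 rose and 3 fell in Dicer mutants (0 and 1, and 0 and 3, without the Y-high arrays). The shares called over all genes were 6.61% and 8.75% (2.73% and 4.40% without these arrays). P4ha3, a prolyl hydroxylase subunit, fell in both, by 0.68 and 0.59, and P4ha1, another, rose by 0.28 and 0.23. Adamts3, a procollagen protease, rose by 0.51 in Yy1 mutants. Pcolce and Pcolce2, enhancers of procollagen cleavage, fell in Dicer mutants by 0.40 and 0.49.

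The enzymes that build the glycosaminoglycan chains were read beside all genes, of which 6.61% were called in Yy1 and 8.75% in Dicer mutants. Of 20 genes of chondroitin and dermatan sulfate synthesis, 2 rose in Yy1 mutants and 1 fell in Dicer mutants, none of them called without the Y-high arrays. Chsy3, a chondroitin synthase, rose by 0.49 and Dse, the epimerase that makes dermatan sulfate, by 0.31 in Yy1 mutants, and the sulfotransferase Ust fell by 0.30 in Dicer mutants. Of 8 genes of keratan sulfate synthesis none passed the limma test in Yy1 mutants, and B4galt1 rose by 0.26 and the sulfotransferase Chst2 fell by 0.45 in Dicer mutants, neither called without the Y-high arrays.

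Several proteases known to cut these proteoglycans or their relatives rose. Of 11, 3 rose in Yy1 mutants and 4 in Dicer mutants, and none fell, with the same counts without the Y-high arrays. The medians were 0.13 and 0.01. Of all genes, 2.77% rose in Yy1 and 4.78% in Dicer mutants. Without the Y-high arrays 2.73% and 4.40% were called in either direction. Adamts1 rose from 8.18 ± 0.164 in controls to 9.21 ± 0.164 in Yy1 and 9.54 ± 0.0820 in Dicer mutants (SD, n = 4; adjusted p = 2.81e-05 and 2.99e-06). Adamts5, an aggrecanase, rose by 0.92 in each, and Adamts9 by 0.48 and 0.69. The cysteine protease Ctss rose by 0.64 in Dicer mutants. It is expressed by macrophages, whose 10 markers averaged 7.20 to 7.37 in controls, 7.65 to 7.84 in Yy1 mutants and 7.77 to 7.97 in Dicer mutants, and their part in the Ctss result was not tested.

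Of 18 ligands and receptors of the family, 2 rose and 2 fell in Yy1 mutants, none of them called without the Y-high arrays, and 4 rose and 3 fell in Dicer mutants (4 and 0 without them). Called over all genes were 6.61% and 8.75%, and 2.73% and 4.40% without these arrays. In Yy1 mutants, Lrp1, an endocytic receptor for decorin, rose by 0.29 and Bmp2 by 0.41, and Tgfb3 fell by 0.41 and the Hgf receptor Met, bound by decorin, by 0.34. Tgfb3 fell by 0.41 in Dicer mutants as well (adjusted p = 0.0116). In Dicer mutants, Bmp4 rose by 0.73, the collagen receptor subunit Itga2 by 0.56, Tgfbr1 by 0.40 and Kdr, a Vegf receptor that is also on the endothelial marker list, by 0.37. Of 25 large and cell-surface proteoglycans, 2 fell in Yy1 mutants and 2 rose and 2 fell in Dicer mutants (1, and 2 and 1, without the Y-high arrays). These counts stand beside the same shares of all genes. Sdc4 (0.63) and Gpc4 (0.43) fell in Yy1 mutants. In Dicer mutants, Srgn (0.58), the proteoglycan of blood cell granules, and Tgfbr3 (0.55) rose, and Gpc1 fell by 0.53 and Vcan, or versican, by 0.29.

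Markers of the cell types around the airways moved beside the members. Their counts stand beside 6.61% and 8.75% of all genes called in Yy1 and Dicer mutants. Without the Y-high arrays these shares were 2.73% and 4.40%. Lung mesenchyme markers averaged 9.60 to 9.72 in controls, 9.83 to 9.89 in Yy1 mutants and 9.71 to 9.80 in Dicer mutants, with 6 of 16 higher in Yy1 and 4 of 16 higher in Dicer mutants (2 and 2 without the Y-high arrays) and none lower. This list holds Col1a1 and Col3a1 but no member. Smooth muscle markers averaged 8.80 to 9.0, 7.73 to 8.14 and 7.78 to 8.23, with 7 and 9 of 12 lower (7 and 6 without the Y-high arrays). The tendon and connective tissue list, which contains Fmod and Kera, averaged 6.93 to 7.05, 6.32 to 6.73 and 6.44 to 6.71, with 3 of 8 lower in each mutant. Besides Fmod these were Scx, a tendon transcription factor, from 8.33 ± 0.150 to 7.48 ± 0.107 and 7.49 ± 0.0665, and its target Tnmd, from 5.24 ± 0.248 to 4.72 ± 0.0708 and 4.67 ± 0.0682. In Yy1 mutants 2 of the 3 were called without the Y-high arrays, and in Dicer mutants 3. The other 5 of the list were not called and did not all go down. Gdf10 differed by 0.31 and 0.01, Thbs4 by -0.15 and 0.13, Mkx by -0.18 and -0.41, and Osr2 by -0.28 and -0.47. Kera is given above. Whether Tnmd was above background is not known either. Fmod enters both the average and the counts of this list, so they are not separate from its own result.

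The other marker lists covered mesothelium, endothelium and epithelium. Their counts stand beside the same shares of all genes. Mesothelial markers averaged 7.13 to 7.35 in controls, 7.33 to 7.39 in Yy1 mutants and 7.30 to 7.43 in Dicer mutants, with 2 of 7 higher and 1 lower in Yy1 mutants and 3 higher and 1 lower in Dicer mutants (1 and 1 in each without the Y-high arrays). Endothelial markers averaged 9.03 to 9.29, 9.10 to 9.34 and 9.54 to 9.63, with 1 of 9 higher in Yy1 and 8 higher in Dicer mutants (0 and 7 without the Y-high arrays). Of the 10 macrophage markers 8 were higher in each mutant (3 and 7), and of the 10 epithelial markers 8 and 7 were lower (7 and 4). Since the table has no detection calls, no marker could be said to be absent. The part of these cell types in the results for Dcn, Lum, Ogn, Aspn, Fmod and Prelp was not tested.

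The genes whose levels followed each called member most closely over the 12 arrays are given as a description. The arrays share the genotype differences, and the 3 closest of all genes are high by selection. For Dcn they were Ncam1, Acaa2 and Rhou (Pearson r 0.972 to 0.981), for Lum Parp8, Itga8 and Eya4 (0.966 to 0.973), and for Ogn Mef2a, Trp53inp1 and Cd53 (0.969 to 0.985). Itga8 encodes an integrin chain of mesenchymal cells, and Trp53inp1 is a p53 target. For Fmod they were Nipal3, Foxa2 and Cckar (0.977 to 0.98). Foxa2 encodes a forkhead factor of the airway epithelium and Cckar the cholecystokinin receptor, and both fell in each mutant. Foxa2 differed by -0.96 in Yy1 and -0.50 in Dicer mutants, and Cckar by -2.59 and -1.55. For Aspn they were Smad1, Ghitm and Lgmn (0.948 to 0.969), for Prelp Tomm40, Alg3 and Fstl4 (0.949 to 0.958), and for Epyc Ccdc112, Adgrf1 and Svs2 (0.905 to 0.931).

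Within genotypes the likeness differed between members. After each genotype's mean was taken off, r was 0.94 for Aspn with Smad1, which was not called in either mutant, 0.91 for Prelp with Tomm40 and 0.92 for Fmod with Nipal3. It was 0.67 for Dcn with Ncam1 and 0.53 for Fmod with Cckar. Without the 2 arrays farthest from the member's median, the r of levels was 0.651 for Epyc with Svs2 and 0.781 with Adgrf1, and at least 0.879 for the other pairs. Spearman's rho of the 21 pairs ran from 0.699 (Epyc with Svs2) to 0.979.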

How the data were processed

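The 12 arrays (4 per genotype) were read from the deposited table of 41345 probe sets. The authors deposited values on a log2 scale, whose base 2 is inferred from the range of 1.10 to 13.58. How they summarised and normalised the probes could not be read from the labels, although the array medians are alike. Probe sets with exactly 1 symbol in the platform annotation (23521; 1814 had several and 16010 were unlisted) gave 22180 genes, each represented by the probe set of greatest mean level across the 12 arrays, and 21994 of them matched RefSeq by Entrez identifier. The 3 genotypes were fitted together with limma 3.58.1 in R 4.3.3 (9 residual degrees of freedom, empirical Bayes, two-sided, Benjamini-Hochberg over all 22180 genes). A gene was called at an adjusted p under 0.05, and intervals are 95% intervals of that fit. Tables and plots were made with Python 3.11.15, pandas 2.3.3, numpy 2.4.6 and matplotlib 3.10.9. The fit was checked on artificial data. Precision is limited by 4 arrays per genotype.

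The members and the 17 gene lists (220 entries, 215 measured) were chosen with earlier results of these data known. All 10 members are named; of the other lists up to 4 called genes with the smallest p per list and comparison, and for each member called against controls the 3 genes of highest Pearson r over the 12 arrays (predicted genes, Riken clones and members left out). Exceptions, named after their values were seen, are the flanking genes, the tendon and epithelial markers named and the Y-linked gene. The values of Col5a2 and Tgfb3 in Dicer mutants were likewise added outside this rule. Alternatives were quantile normalisation, equal medians, a filter on the dimmest 30% of genes, averaging a gene's probe sets, an intensity trend with robust prior, array weights, a fit without the group not compared, the replicate number as a block, removal of the 3 Y-high arrays, and each array left out in turn. Motifs were searched on both strands, overlaps allowed. Protein sequences and promoters of Dcn and Lum were not used here.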

Additional observations from a re-analysis of the deposited data

Results flagged for a closer look

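The Yy1 and Dicer mutants, compared through a test of their difference, differed in 1 member, Fmod, at -0.81 (SE 0.129, adjusted p = 0.00204; 95% interval -1.09 to -0.53).

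Among the other genes named from the lists of family, collagen, chain synthesis, proteoglycan, ligand and protease genes, 15 differed between the mutants by the same limma test. All but Vcan met the rule for naming through this same comparison, so their count is no result about the lists. The named flanking, marker and closest-following genes were not part of this check. Some of them also passed the limma test between the mutants, such as Foxa2 (-0.46, adjusted p = 0.00678), Cckar (-1.04, 0.00113), Btg2 (-0.45, 0.0108) and Atp2b4 (0.32, 0.0298). So did Itga8 (0.27, 0.046), Nkx2-1 (-0.49, 0.0307) and Sftpc (-1.24, 0.00441). Of the 10 epithelial markers, 7 were lower in Yy1 than in Dicer mutants and 1, Krt18, was higher (0.31, 0.0297). Of all genes 4.96% were called. Without the Y-high arrays 6 of these markers were lower and 0 higher, so Krt18 was no longer called. Of the chain-building enzymes, Chsy3 was higher in Yy1 mutants by 0.60 (adjusted p = 0.00292) and Chst2 by 0.43 (0.0274), while Chst11 was at -0.43 (0.00575) and B3gnt7 at -0.34 (0.0366). Of the larger proteoglycans, Vcan was at 0.39 (0.00815), Sdc4 at -0.52 (0.00633), Gpc4 at -0.63 (0.00308), Srgn at -0.48 (0.00192) and Tgfbr3 at -0.42 (0.00455). Of the ligands and receptors, Itga2 was at -0.56 (6.99e-05), Bmp4 at -0.43 (0.00915), Tgfbr1 at -0.48 (0.00201) and Kdr at -0.39 (0.00585), and of the proteases Ctss was at -0.50 (0.0044) and Adamts4 at 0.31 (0.0276). After removal of the Y-high arrays, adjusted p was above 0.05 for Chsy3 (0.0574), Chst2 (0.294), B3gnt7 (0.244), Gpc4 (0.0635), Srgn (0.0743), Tgfbr1 (0.0585), Ctss (0.0878), Adamts4 (0.357) and Vcan.

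Single arrays stood far from the other 3 of their genotype in 8 of 156 groups checked over 52 genes, the members and these list genes, where chance gives about 1 in 20; 0 of these 8 were in the 30 groups of the members. Podn read 6.64 in control 3 against 6.91 to 6.94, Gpc4 8.0 in control 2 against 7.82 to 7.84, and Met 8.09 in control 1 against 7.90 to 7.92. In Yy1 mutant 2, Srgn read 8.32 against 8.44 and Bmp2 6.70 against 7.0 to 7.03. In Dicer mutants, Chadl read 6.06 in mutant 1 against 5.93 to 5.94, Gpc4 7.93 in mutant 2 against 8.09 to 8.12, and Chsy3 7.25 in mutant 3 against 7.71 to 7.78.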

How the results depend on the processing

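Over 21 alternatives, 600 of 621 values for the members kept their direction and their side of the threshold, 10 lost a call, 3 gained one and 8 changed sign; 0 of the sign changes were in a called result. Calls for Dcn, Lum and Fmod held in all alternatives against controls. After removal of the 3 Y-high arrays, 606 genes were called in Yy1 mutants, 976 in Dicer mutants and 435 between the mutants; fewer arrays entered that fit. With array weights 1806 genes and 2 members were called between the mutants; the cause was not tested. With 1 array left out the counts ran from 1020 to 1455, 1275 to 1991 and 726 to 1180, the lowest of the last pair without Dicer mutant 4, and the members called from 4 to 5, 6 to 7 and 1 to 1. Bgn, between the mutants, was 0.01 with all probe sets averaged and -0.10 to 0.02 with 1 array left out. Kera in Yy1 mutants ran from -0.04 to 0.04 and Omd in Dicer mutants from -0.05 to 0.06. The filter on dim genes removed Omd, Kera and Epyc. With the replicate number as a block, 1301, 1848 and 997 genes and 4, 7 and 1 members were called, so no member's call changed. The labels do not say whether the numbers pair the specimens. Deviations of same-numbered arrays correlated at -0.161 to 0.19 and those of other pairs between genotypes at -0.259 to 0.214. Of the 12 arrays, 5 correlated best with their own number. Weak correlations cannot show that no litter or run was shared, so this check does not decide it. Signal over background could not be judged, since the table has no detection calls.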
